A study of Mus musculus with 10 samples.

Results

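Integrin receptors and laminins, their partners in the matrix, were followed as 37 genes through CUT&Tag tables of mouse cardiac fibroblasts. In CUT&Tag an antibody brings a transposase to chromatin, and the DNA tagged there is sequenced. Members were all listed regions that the authors' annotation assigned to an integrin alpha gene (18 genes), an integrin beta gene (8) or a laminin chain gene (11). They came to 815 of 340994 regions over 5 tables. The tables compared primary fibroblasts from mouse heart that received TGF-β (TGF) with fibroblasts transfected with an siRNA against hexokinase 1 before TGF-β (siHK1). A further table compared TGF with control fibroblasts (NC), whose title, NC (control), names no treatment. The labels gave no strain, sex or age for the cultured cells. The TGF and siHK1 cells both carried TGF-β, and no sham siRNA was named for the TGF libraries. CUT&Tag was performed with antibodies to lactylated histone H3 lysine 9 (H3K9lc), JUN, SMAD3 and NFATC2, with 1 library per condition and antibody. Hence no value below has a replicate error, no difference was tested, and each statement compares libraries. Intervals cover counting error only. The H3K9lc library of knockdown cells is titled SI and was read as siHK1, and the NC title names no antibody and was read as H3K9lc, in each case because the label names the corresponding table. The tables analysed carry no RNA or protein values, and the knockdown was not checked in them. In bulk samples, fewer cells of a type and less signal per cell cannot be told apart.

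An integrin is a membrane receptor built from an alpha and a beta chain, which binds matrix outside the cell and, through talin and kindlin, the actin cytoskeleton inside. Laminins are trimers of an alpha, a beta and a gamma chain that form the scaffold of basement membranes. In fibroblasts, integrins with the αv chain can release TGF-β from its latent complex, α11β1 binds fibrillar collagen and α5β1 binds fibronectin. JUN is a subunit of the AP-1 transcription factor, SMAD3 carries the TGF-β signal to DNA, and NFATC2 is a calcium-dependent factor. Lactylation is a histone mark that is derived from lactate, the product of glycolysis, which hexokinase opens.

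The sequences at which the results turned were read from the GRCm38 genome, plus strand, except for the Itga5 promoter. Those from JUN regions are the central 200 bp, with the AP-1 word TGANTCA and the SMAD word CAGAC (or GTCTG, its reverse complement) in capitals. Both Itgb3 regions, in an intron and over a coding exon, had at least 2-fold fewer JUN reads in the siHK1 library. The Itgb2 intron region is shown as a strongly covered site that was not lower. The region 62.9 kb upstream of Itga11 had the largest difference among the members' JUN regions above the median level.
Itgb3 intron, chr11:104619591-104619790: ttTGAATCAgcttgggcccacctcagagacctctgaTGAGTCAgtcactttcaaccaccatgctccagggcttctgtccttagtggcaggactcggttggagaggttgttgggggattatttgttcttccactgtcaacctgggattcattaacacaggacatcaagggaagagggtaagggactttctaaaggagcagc
Itgb3 coding exon, chr11:104640999-104641198: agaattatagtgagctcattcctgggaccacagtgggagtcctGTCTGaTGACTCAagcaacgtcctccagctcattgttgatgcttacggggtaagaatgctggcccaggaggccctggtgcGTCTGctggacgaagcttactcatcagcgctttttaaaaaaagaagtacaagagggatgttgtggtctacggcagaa
Itgb2 intron, chr10:77531565-77531764: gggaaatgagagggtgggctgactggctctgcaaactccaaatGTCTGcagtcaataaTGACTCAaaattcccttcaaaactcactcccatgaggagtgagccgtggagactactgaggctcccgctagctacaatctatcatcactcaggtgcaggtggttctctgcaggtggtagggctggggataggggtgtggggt
Itga11 upstream, chr9:62614191-62614390: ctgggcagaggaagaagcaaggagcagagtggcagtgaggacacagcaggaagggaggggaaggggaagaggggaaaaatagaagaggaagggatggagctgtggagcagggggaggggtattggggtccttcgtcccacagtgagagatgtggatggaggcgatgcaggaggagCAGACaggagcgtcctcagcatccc

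The Itga5 promoter is shown because it was the single JUN region within 3 kb of a start site that was called lower. The 250 bases before the start come from RefSeq (GRCm38.p6, chr15:103366792-103367041, minus strand), with the NFAT word GGAAA (or TTTCC, its reverse complement) in capitals. They hold 6 NFAT words, no TGANTCA and no SMAD word. The NFAT word occurs in 61.3% of all RefSeq promoters of 300 bp. No NFATC2 region of a member overlapped the JUN region at this promoter. The 300 bp promoter, which runs past the start, holds 2 SMAD words over both strands, as does the central 200 bp of the JUN region.
Itga5 promoter: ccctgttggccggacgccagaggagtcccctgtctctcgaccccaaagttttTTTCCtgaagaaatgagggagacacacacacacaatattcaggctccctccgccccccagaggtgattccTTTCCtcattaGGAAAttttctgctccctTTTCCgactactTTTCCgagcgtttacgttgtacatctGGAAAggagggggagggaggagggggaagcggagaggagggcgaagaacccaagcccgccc

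The tables differed in depth, and with it in how much a member's value can carry. Reads within listed regions numbered 4215447 (TGF) and 2271336 (siHK1) for JUN, 2490853 and 1419023 for H3K9lc. The other factors had less, SMAD3 563562 and 399897 and NFATC2 575706 and 354599. The NC library had 115572 reads, against 2313288 for TGF in the same table. A median member region held 36 and 20 JUN reads, 17 and 8 H3K9lc reads, 4 and 4 SMAD3 reads, and 3 and 3 NFATC2 reads, TGF before siHK1. In the NC table it held 1 NC read and 15 TGF reads, and 38 of 80 member regions (47.5%) had no NC read at all, beside 45.3% of all regions. The regions of fibroblast markers were present in the JUN table for 6 of 6 genes (Pdgfra, Tcf21, Col1a1, Col1a2, Dcn and Ddr2). JUN regions were also assigned to 4 of 4 endothelial, 4 of 4 cardiomyocyte, 3 of 3 smooth muscle or pericyte and 3 of 5 leukocyte markers, with a median of 79.5, 52.0, 56.3 and 132 reads per kb in the TGF library, beside 82.4 for the fibroblast markers. The part of other cell types in the results was not tested.

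**Figure D1:**
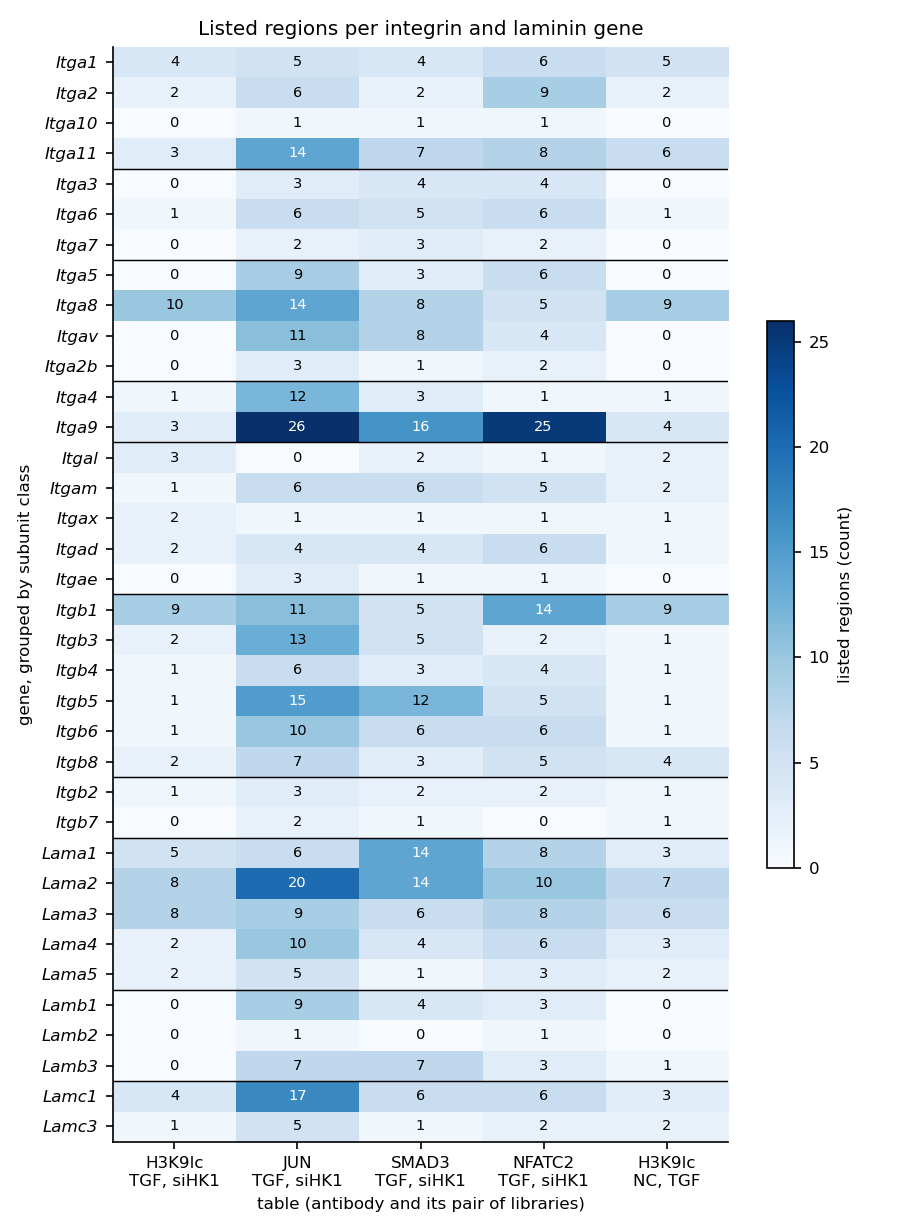
Number of listed regions assigned to each of 36 integrin and laminin genes (rows, grouped by subunit class) in each of the 5 tables (columns, antibody and pair of libraries). Itga9 has the most JUN regions (26), and 11 genes have no H3K9lc region in the table of TGF and siHK1.

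Members carried far more factor regions than H3K9lc regions. The JUN table held 290 regions of 36 genes, SMAD3 had 177 of 36, NFATC2 had 188 of 36, H3K9lc had 80 of 26, and the NC comparison had 80 of 27. In all, 72990, 58633, 68767, 74751 and 65853 regions were listed, in the same order. Of all H3K9lc regions 65.3% were distal intergenic, beside 32.9% of all JUN regions. The contrast is thus not read as particular to these genes. The α9 chain gene Itga9 had the most over all tables (74), followed by Lama2 (59), Itgb1 (48) and Itga8 (46). Lamb2 had 2, Itga10 3 and Itgb7 4. Itgal, the αL chain of leukocytes, had no JUN region, Lamb2 no SMAD3 region and Itgb7, a leukocyte beta chain, no NFATC2 region. Of the 80 H3K9lc regions 38 were intronic (47.5%, beside 23.1% of all H3K9lc regions) and 3 lay within 3 kb of a start site (3.75%, 95% exact interval 0.780 to 10.6, beside 6.78%). For JUN, 147 of 290 were intronic (50.7%, beside 35.6%) and 52 lay within 3 kb of a start (17.9%, 13.7 to 22.8, beside 25.6%). Distances are to the nearest annotated transcript start, alternative starts included, and a region assigned to a gene is not shown to regulate it.

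JUN was compared first, as the antibody with the most reads. Of the 290 member regions 152 had a level above the median of the table, and among these 7 (4.61%) had at least 2-fold fewer JUN reads in the siHK1 library after the authors' scaling, beside 3.29% of all 36475 such regions. Another 1 (0.658%) had at least 2-fold more, beside 0.888%. The shares were thus near the background. The median difference over all 290 member regions was -0.15 on the log2 scale (siHK1 minus TGF, deposited values), beside -0.13 over all 72990 regions. At equal totals of listed reads the medians were -0.08 and -0.04, and 4 regions were called lower and 1 higher, beside 2.56% and 1.57% of all regions above the median level. The calls lost there were those of the Itga8 region, the Itga5 region 10.2 kb upstream and the Itgb3 exon region described below, which had been close to 2-fold.

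The 7 lower regions lay at 4 integrin genes. They belonged to Itga5, Itga8 and Itga11, which encode alpha chains of the fibronectin, nephronectin and collagen receptors, and to Itgb3. The Itgb3 β chain pairs with αv and αIIb. No laminin region was called lower, among 23 alpha, 5 beta and 22 gamma chain regions above the median level. At the background share of 3.29%, so few regions cannot set laminin genes apart from integrin genes. At Itga11 the region 62.9 kb upstream, chr9:62613635-62614946, held 128 JUN reads in the TGF library and 22 in the siHK1 library, a difference of -1.66 (log2, deposited values). At equal totals it was -1.62, with an exact 95% interval of -2.37 to -0.99. Another region 45.0 kb upstream, chr9:62631846-62632809, held 93 and 21 reads (-1.28). The best covered regions between and beside them did not share this difference. Of the thinner ones below the median level, 4 did, of which that 56.5 kb upstream held 44 and 7 reads (-1.77). The region 52.4 kb upstream, the strongest of Itga11, held 353 and 212 reads (0.18), that at 50.2 kb 195 and 114 (0.11), and that at 37.0 kb 292 and 173 (0.15).

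Itga5, which encodes the α5 chain of the fibronectin receptor, had fewer JUN reads at most of its upstream regions. The promoter region, chr15:103366544-103367099, held 135 TGF and 32 siHK1 reads (-1.20, at equal totals -1.17 with an interval of -1.79 to -0.62), and a peak was called there in the TGF library alone. A region 10.2 kb upstream, chr15:103376962-103377356, held 99 and 27 reads (-1.01). Other upstream regions were lower by less than 2-fold, with 213 and 78 reads at 1.2 kb (-0.56), 340 and 123 at 3.5 kb (-0.55), 598 and 233 at 11.1 kb (-0.42) and 139 and 45 at 16.4 kb (-0.76). That at 5.1 kb held 84 and 41 (-0.19) and that at 26.5 kb 210 and 118 (0.05). Not all of the gene followed, since a region over the gene body, chr15:103358081-103359584, held 221 and 170 reads (0.51). In all, 7 of the 9 Itga5 regions had a difference below 0.

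The 2 lower Itgb3 regions, shown above, were spaced along the gene. The intronic one, chr11:104619480-104619901, held 63 TGF and 16 siHK1 reads (-1.13), and the exonic one, chr11:104640941-104641256, held 69 and 19 (-1.01). The Itgb3 region of highest level, chr11:104624698-104625408, held 201 and 80 reads (-0.44), and 11 of 13 regions of the gene were below 0. The lower Itga8 region, chr2:12023381-12024346, is intergenic and held 64 and 17 reads (-1.07). The single higher region lay in an intron of Itgb5, another partner of αv, at chr16:33869872-33870353, with 25 TGF and 30 siHK1 reads (1.02, at equal totals 1.15 with an interval of 0.34 to 1.98).

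**Figure D2:**
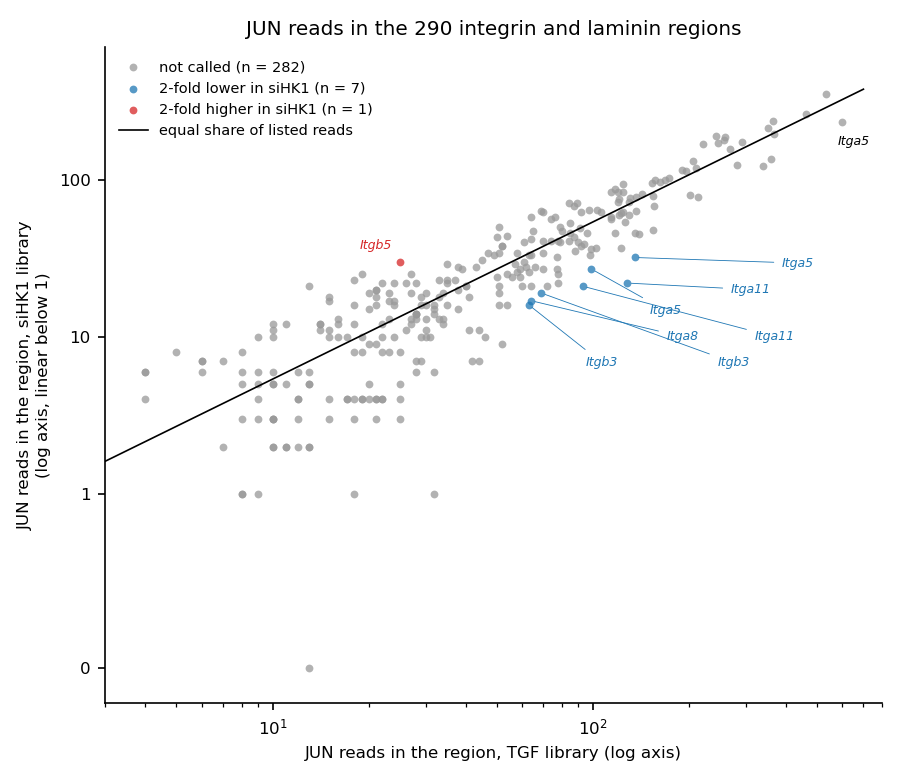
JUN reads in each of the 290 integrin and laminin regions, TGF library (horizontal, log axis) against siHK1 library (vertical, log axis, linear below 1). The line marks an equal share of each library's listed reads, and the 7 regions called lower are blue and the 1 called higher is red. Regions with few reads spread widely about the line, and 42 of them lie at least 2-fold lower without a call because their level is below the median. Both axes show raw reads, whereas the calls rest on the authors' scaled values and on the level.

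Regions of high level at other members differed by less than 2-fold, in either direction. At Lamc1, the γ1 chain found in most laminins, the promoter region chr1:153332638-153334032 held 246 and 172 reads (0.38) and the strongest intronic region 462 and 264 (0.12). The region 18.4 kb upstream of Itgb1, the β1 chain shared by most fibroblast integrins, held 369 and 196 reads (0.00), and the Itgb1 promoter 65 and 47 (0.35). At Itgb2, the β chain of leukocyte integrins, the region chr10:77531153-77532175 held 366 and 237 reads (358 and 232 per kb, 0.29), beside 522 and 277 per kb at that upstream Itgb1 region and 64.3 and 46.5 at the Itgb1 promoter. At Lamb3, the β3 chain, the strongest region held 361 and 135 reads (-0.50). Of the 52 JUN regions within 3 kb of a start, 14 overlapped the start itself, and none besides the Itga5 promoter was called. Over the whole table, 212 of 18689 JUN regions within 3 kb of a start were called lower and 57 higher.

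Reads were then summed over all JUN regions of a gene and compared at equal totals. Among the 26 members with at least 5 JUN regions, the median log2 ratio was 0.06 and 12 were below 0. Over all 4906 such genes the median was -0.02 and the middle 80% ran from -0.36 to 0.28. Members with a ratio below this range were Itgb3 (859 TGF and 349 siHK1 reads, -0.41, 95% exact interval -0.59 to -0.23), Lama5 (327 and 120, -0.55, -0.87 to -0.25) and Lama3 (229 and 83, -0.57, -0.95 to -0.20). Lama5 encodes an α chain that is widespread in adult basement membranes, and Lama3 that of epithelial laminins. Itga5 was near the lower end (2039 and 867, -0.34, -0.46 to -0.23). On the other side stood Itgb6, the epithelial partner of αv, with 962 and 660 reads (0.35, 0.20 to 0.49) and 1 of 10 regions below 0. Itga1, the α1 chain of a collagen receptor, had the highest ratio on few reads (84 and 62, 0.46, -0.04 to 0.94). Lama4 (0.27), Itga2 (0.24) and Lamc1 (0.13) had intervals above 0 as well. Itga11 summed to 1285 and 618 reads (-0.16, -0.30 to -0.02), with 9 of 14 regions below 0. The intervals treat reads as independent molecules, which PCR copies are not, and spread between cultures would add to them.

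**Figure D3:**
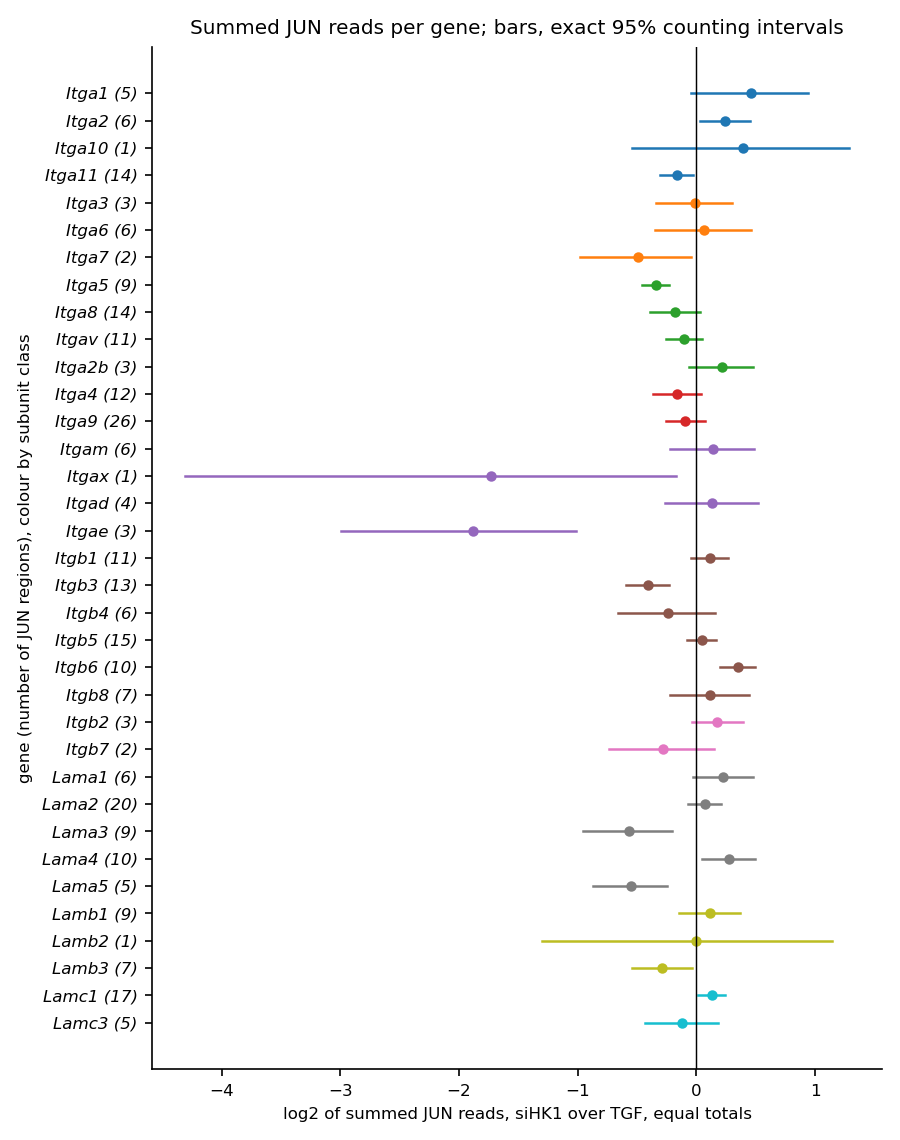
Log2 ratio of JUN reads summed over all regions of each gene, siHK1 over TGF at equal totals (horizontal axis), for 35 genes grouped and coloured by subunit class, with exact 95% counting intervals as bars and the number of regions in brackets. Itgae and Itgax, with few reads, lie lowest, Itga5, Itga7, Itgb3, Lama3 and Lama5 also lie below 0 and Itgb6 above, while most members include 0 or sit close to it.

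By role, the JUN medians ran from -0.33 to 0.11. Alpha chains that bind laminin (Itga3, Itga6 and Itga7, 11 regions) had a median difference of -0.33, those that recognise the RGD motif of fibronectin and vitronectin (Itga5, Itga8, Itgav and Itga2b, 37 regions) -0.32, and Itga4 with Itga9 (38 regions) -0.31. The collagen-binding chains (Itga1, Itga2, Itga10 and Itga11, 26 regions) had 0.11, the non-leukocyte beta chains (62) 0.00, and the laminin alpha (50), beta (17) and gamma (30) chains -0.21, -0.22 and -0.03. Of the RGD regions 24 of 37 and of the collagen-receptor regions 11 of 26 were below 0, beside 58.6% of all JUN regions. Among leukocyte chains, Itgae had 78 TGF and 11 siHK1 reads over 3 regions (-1.88 at equal totals), all below the median level of the table, and the single Itgax region, also below that level, had 21 and 3 (-1.73, interval -4.30 to -0.17). Itgam and Itgad summed to ratios with intervals that included 0.

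**Figure D4:**
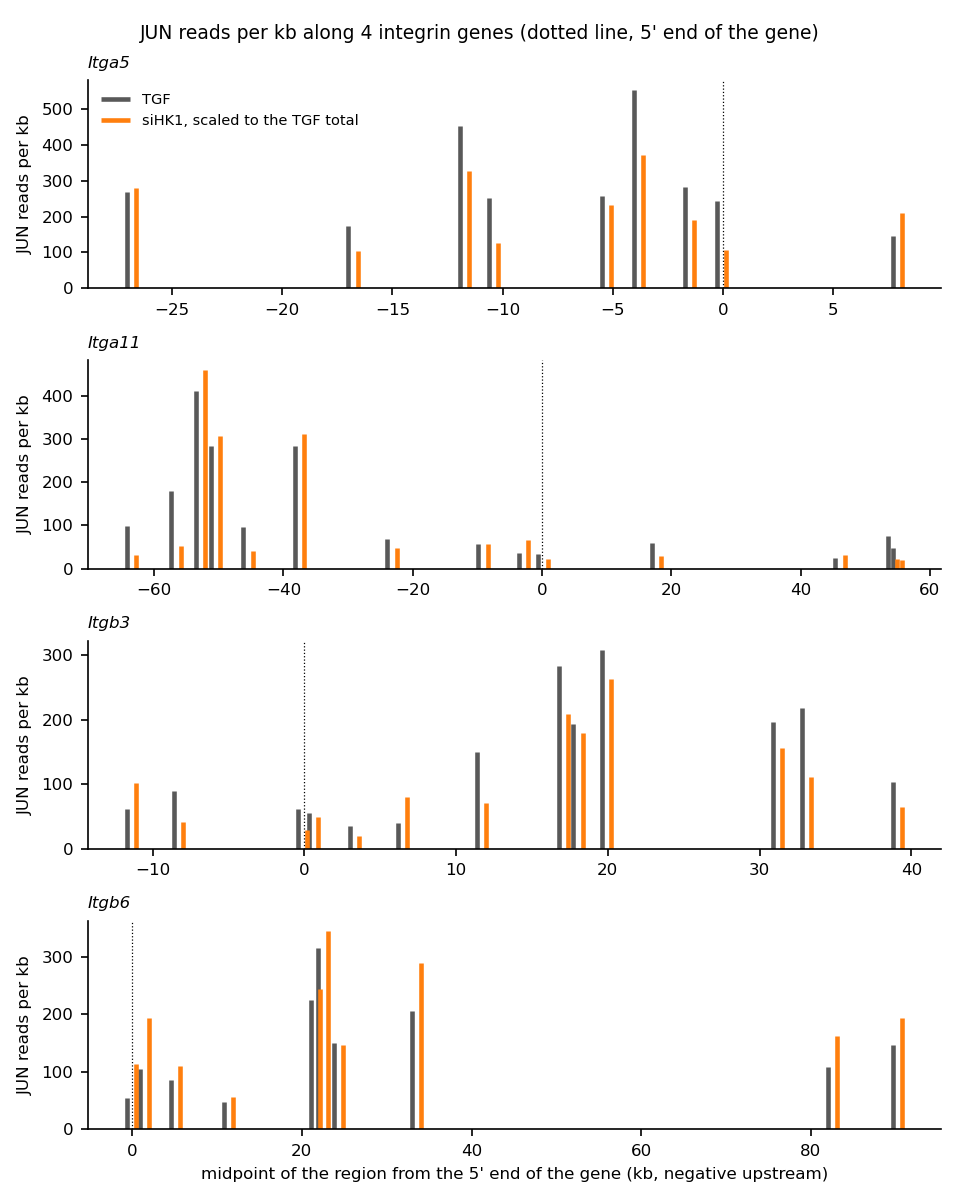
JUN reads per kb (vertical axis) in each region of Itga5, Itga11, Itgb3 and Itgb6 against the distance of its midpoint from the 5′ end of the gene (horizontal axis, kb), with TGF in grey and siHK1, scaled to the TGF total, in orange and drawn beside it. The orange lines are shorter at 7 of 9 Itga5 regions and taller or nearly level at the strongest Itga11 regions and at most Itgb6 regions.

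AP-1 words were about as frequent in member JUN regions as in others. TGANTCA, a palindrome that reads alike on both strands, occurred in the central 200 bp of 80 of 290 (27.6%, 95% exact interval 22.5 to 33.1), beside 29.2% of all JUN regions. Above the 75th percentile of level the shares were 36.2% and 38.4%, and within 3 kb of a start 25.0% and 17.5%. Among the 7 lower regions, 2 held the word (both at Itgb3) and 5 held CAGAC on either strand, which occurred in 63.6% of the 1201 lower JUN regions and 44.5% of all JUN regions. RefSeq promoters of 300 bp were listed for 23 of the members (26 sequences). TGANTCA was found in 3 of these, at Itga3, Itga9 and Itgax (11.5%, beside 7.81% of all promoters), CAGAC in 18 (69.2%, beside 49.6%) and GGAAA in 14 (53.8%, beside 61.3%). The word matches are descriptions and do not mark binding sites.

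SMAD3 had a different balance from JUN, on far fewer reads. Of 102 member regions above the median level, 14 (13.7%) were at least 2-fold lower in the siHK1 library, beside 20.6% of all 28649 such regions, and 29 (28.4%) at least 2-fold higher, beside 26.0%. At equal totals the counts were 9 and 35, beside 16.8% and 31.9%. The median over all 177 member regions was 0.25 (0.49 at equal totals), beside -0.16 (0.01) over all SMAD3 regions. Peaks were called in the siHK1 library alone at 105 regions (59.3%, beside 47.7% of all SMAD3 regions), in the TGF library alone at 59 (33.3%, beside 47.2%) and in both at 11 (6.21%, beside 4.98%). The median difference was -1.31 at the TGF peaks and 0.85 at the siHK1 peaks, so values moved with the library in which the peak had been called.

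Laminin gamma chain regions had the highest SMAD3 median among roles with over 5 regions (1.55 over 11 regions, with 4 higher and 1 lower of the 9 above the median level), followed by the laminin beta chains (0.85 over 11, with 2 higher and 1 lower of 5). The laminin alpha chains had -0.28 over 39 regions, with 1 higher and 5 lower of 19. Integrin beta chains outside leukocytes had 0.29 over 34, with 8 higher and 4 lower of 22. These counts stand beside the 26.0% higher and 20.6% lower of all SMAD3 regions. Most single values rested on few reads. Itga5 had 12 TGF and 27 siHK1 reads 11.8 kb upstream (1.46, at equal totals an interval of 0.64 to 2.78), 1 and 9 at 16.6 kb (interval 0.81 to 9.12), and 2 and 7 at the promoter (-0.09 to 5.60). Itgb5 had 10 and 20 reads in an intron (1.27) and the Itgb2 region near its start 27 and 37 (0.85). Lower members were led by the region 203.6 kb upstream of Lama2, the α2 chain of muscle laminin, with 18 and 1 reads (-3.26, interval -9.06 to -1.01 at equal totals). Next came a region 2.8 kb from a start of Itgae with 10 and 1 (interval -8.27 to -0.01).

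The SMAD3 balance differed with overlap of a JUN region. Of the 177 SMAD3 regions 54 (30.5%) overlapped a JUN region by at least 1 bp, which involved 56 (19.3%) of the 290 JUN regions. Their median SMAD3 difference was 0.74, and 43 of 54 (79.6%) were above 0. Among the 123 without a JUN region the median was -0.14, and 58 (47.2%) were above 0. The same split held over the whole table, with 71.2% of 13458 overlapping regions (median 0.71) and 40.8% of the other 45175 (median -0.62) above 0, so it is not particular to integrins and laminins. Above the median level, overlapping members included 18 higher and 1 lower of 48, the others 11 higher and 13 lower of 54. Of all such SMAD3 regions 38.0% were higher and 7.41% lower with a JUN region, 18.1% and 29.2% without. Of the 56 pairs, JUN was below 0 and SMAD3 above 0 at 27, both were above at 18, both below at 6, and JUN was above with SMAD3 below at 5. Pairs were not counted over all regions. There, 58.6% of JUN regions were below 0 and 71.2% of overlapping SMAD3 regions above 0. The pair counts are therefore not read as a link between the factors. The overlapping regions also had more SMAD3 reads, with a median of 5.5 and 8 against 3 and 3, and the part of depth in the split was not tested.

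**Figure D5:**
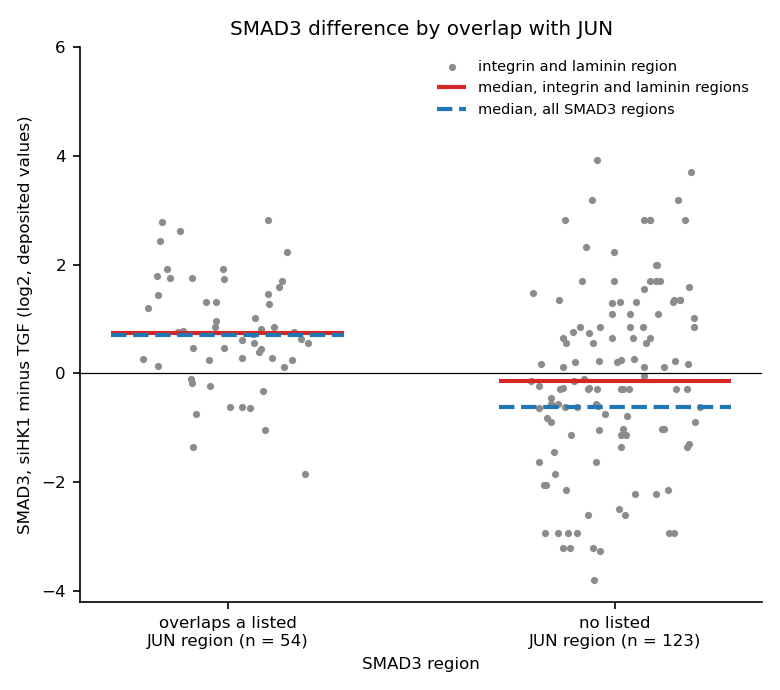
SMAD3 difference between siHK1 and TGF (vertical axis, log2 of deposited values) for the 54 integrin and laminin SMAD3 regions that overlap a JUN region and the 123 that do not, with 1 point per region, spread sideways for legibility. The red lines mark the members' medians (0.74 and -0.14) and the dashed blue lines those of all SMAD3 regions (0.71 and -0.62).

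The 1 overlapping member region called lower for SMAD3 lay in an intron of Itgb6, chr2:60631619-60632859, where all 4 antibodies had a region. SMAD3 held 58 TGF and 20 siHK1 reads (-1.03, at equal totals an interval of -1.85 to -0.29). NFATC2 held 43 and 18 (-0.52, interval -1.44 to 0.27), H3K9lc 50 and 29 (-0.04) and JUN 259 and 186 (0.42, interval 0.13 to 0.69). SMAD3 and JUN thus stood on opposite sides of 0 at this site, with intervals that excluded 0.

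NFATC2 was the thinnest of the factors at members. Of 105 regions above the median level 22 (21.0%) were at least 2-fold lower in the siHK1 library, beside 24.6% of 32796, and 38 (36.2%) at least 2-fold higher, beside 27.0%. The median of all 188 was 0.53 (0.70 at equal totals), beside 0.36 (0.41). Among the 105 above the median level it was 0.08. The largest differences came from counts of 10 reads or fewer. Itga9 had 1 TGF and 8 siHK1 reads in an intron (interval 0.80 to 9.17 at equal totals) and 10 and 1 in another (-8.06 to 0.19), and Itga11 had 10 and 1 over an exon (-8.06 to 0.19). Itga9 and Itga4 together had 8 higher and 2 lower of 15, the laminin-binding alpha chains 6 and 2 of 8, and the collagen-binding alpha chains 3 and 6 of 12. Better covered regions were closer to 0. The Itgb2 region near its start held 27 and 20 reads (0.26), an intron of Itgb4, the β4 chain of hemidesmosomes, 15 and 14 (0.56), and an Itga9 intron 21 and 11 (-0.23). Of the 54 JUN regions that overlapped NFATC2, 13 had both differences below 0 and 15 both above, while 13 had JUN alone below 0 and 13 NFATC2 alone. These pairs were not counted over all regions either.

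After the authors' scaling, which hides a change common to all regions, H3K9lc differed little between TGF and siHK1 at members. Their reads summed to 3830 and 2326 before it. Of 42 regions above the median level 1 was at least 2-fold lower, beside 5.02% of 37341, and 1 at least 2-fold higher, beside 1.64%. The median of all 80 was -0.16 (-0.03 at equal totals), beside -0.19 (-0.08). The lower region lay in intergenic sequence near Itga8, chr2:12046799-12047417, with 28 and 7 reads (-1.22, at equal totals an interval of -2.63 to 0.04). Of the 10 Itga8 regions 9 were below 0, beside 60.8% of all H3K9lc regions, and their summed reads, 204 and 84, gave -0.46 (-0.85 to -0.09). Over all 4353 genes with at least 5 H3K9lc regions, the middle 80% of such sums ran from -0.34 to 0.24. The Itga8 sum was picked after its value was seen. The higher region was 30.1 kb upstream of Lamc1, with 8 and 14 reads (1.41). After the Lama1 region given below, the most reads lay 199.8 kb and more upstream of Lama2, where chr10:27819596-27822082 held 474 and 272 reads (0.05) and the adjoining regions 339 and 226 (0.24) and 271 and 175 (0.19). The best covered Itgb1 region, in an intron, held 182 and 111 (0.09), and the Itgb5 intron region 128 and 52 (-0.51, interval -0.98 to -0.01). Of the 80 H3K9lc regions 10 overlapped a JUN region (12.5%, beside 5.92% of all H3K9lc regions), which involved 10 of 290 JUN regions (3.45%).

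The comparison of NC with TGF rested on the thin NC library, and it shares the TGF H3K9lc library with the comparison above. Of 32 member regions above the median level 11 were at least 2-fold higher in TGF, beside 34.0% of 32641, and 1 at least 2-fold lower, beside 4.28%. The median of all 80 was 0.87 (1.01 over all regions), but at equal totals it was -0.24 (-0.08), with 6 higher and 10 lower of the 32, beside 15.3% and 26.0% of all such regions. The direction of the median therefore followed the scaling. The best covered higher region was that 199.8 kb upstream of Lama2, with 16 NC and 554 TGF reads (1.18, at equal totals 0.75 with an interval of 0.08 to 1.61). Regions with 0 NC reads were led by an intron of Itgad, the αD chain of leukocytes, with 79 TGF reads, which is at least 1.32-fold higher at equal totals when NC is placed at a floor of 3 reads. Regions of Lama2 (54 TGF reads), Itga4 (51) and Itga8 (43 and 35) with 0 NC reads gave no bound above 1. An Itgb1 intron held 6 and 161 reads (0.99, interval -0.73 to 1.89 at equal totals) and an Itgb5 intron 7 and 128 (0.50, interval -1.21 to 1.21). All 6 regions within 3 kb of a start were below the median level.

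The single lower region in TGF was also the member with the most reads per kb in every table. It lies in an intron of Lama1, at chr17:67741362-67741633 in the H3K9lc table, where the reference marks 90.4% of the bases as repeat. With the H3K9lc antibody it held 913 TGF and 602 siHK1 reads, and in NC cells 131. The factor libraries held 242 and 189 (JUN), 207 and 179 (SMAD3), and 245 and 191 (NFATC2). Its level ranked from 84th to 1309th in the 5 tables. Signal at this position was thus common to all 4 antibodies and to NC cells, and the part of repeat mapping in it was not tested. Leaving it out of the NC comparison leaves no lower region.

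Partner genes in 2 further lists were described in the same way. The 19 integrin adaptors and kinases, such as talin, vinculin, kindlins and focal adhesion kinase, had 247 JUN regions, and of 151 above the median level 2 were lower and 3 higher, beside 3.29% and 0.888% of all such JUN regions. Their SMAD3 regions above that level included 8 lower and 30 higher of 79, beside 20.6% and 26.0% of all such regions. Their NFATC2 regions included 25 lower and 35 higher of 106, beside 24.6% and 27.0%. The other list held 6 basement membrane partners and non-integrin receptors of laminin, among them the nidogens and perlecan. These genes had 0 lower and 1 higher JUN regions of 22 and 1 lower and 6 higher SMAD3 regions of 18 above the median level. For NFATC2 they had 8 lower and 5 higher of 17, with a median difference of -0.06 beside 0.53 for integrins and laminins. The median SMAD3 differences of 0.45 and 0.34 stood beside 0.25 for integrins and laminins.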

How the data were processed

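CUT&Tag libraries were compared in 5 tables over 9 libraries, 1 per condition and antibody. A library titled TGF with no antibody was not used, nor were the 2 columns of a library outside the sample list in its table. The methods name Bowtie2 for alignment, MACS2 for peaks and spike-in DNA, whereas the submitters' processing notes name BWA 0.7.12 and mm10. The deposited files hold raw read counts per region and library, which the authors obtained, and a mark for a called peak. A normalized log2 value per library, made by the authors, followed a straight line in log2(count + 0.5) with a slope of 1 for the shallower library and 0.861 to 0.964 for the deeper one. Columns of the authors' own comparison (differences, p-values and calls) were not used. The methods name GRCm39, but 118 of 120 member transcripts were found in GENCODE vM21 (GRCm38), all 118 with the same ends, so coordinates are given on GRCm38.

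The main value is the difference of the deposited log2 values, which removes a shift common to all regions. Called means at least 2-fold, at a region whose level (the mean of both log2 values) exceeds the table's median. Equal totals divide each count, with 0.5 added, by the library's reads in listed regions, which are not its full depth. Ratios and shares carry exact (Clopper-Pearson) 95% intervals. A count of 0 has a floor of 3 reads. Named were the best covered region of each member, the regions within 3 kb of a start and the largest differences above the median level. Others named, such as gene sums and neighbouring regions, were chosen after their values were seen. Members and lists were chosen with earlier results of these data known. Overlap needed 1 shared bp. Of the member genes, 1 enters the counts and is not reported on its own here. Scripts ran in Python 3.11.15 with pandas 2.3.3 and SciPy 1.17.1 and were tested on simulated data.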

Additional observations from a re-analysis of the deposited data

How the results depend on the processing

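No paired analysis was possible because only 1 library was made per group. Counts of lower and higher member regions are given in that order. The order of comparisons is H3K9lc, JUN, SMAD3, NFATC2 and TGF over NC. With no level filter they were 14 and 11, 49 and 7, 39 and 53, 46 and 80, and 13 and 36. Above the 75th percentile of level they were 0 and 0, 3 and 0, 6 and 11, 8 and 16, and 1 and 6. At 3-fold they were 0 and 0, 1 and 0, 6 and 11, 6 and 18, and 0 and 6. Within 3 kb of a start they were 0 and 0, 1 and 0, 3 and 5, 2 and 8, and 0 and 0. Equal totals left 4 lower for JUN and 9 for SMAD3, and gave 10 lower and 6 higher for TGF over NC. The filters on level and distance take in more or fewer regions by construction, and the 3-fold rule is stricter. For the settings of level and fold no share over all regions was taken, so these counts are not set against a background. For equal totals the cause was not tested.

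Medians without scaling were -0.85 for H3K9lc, -0.97 for JUN, 0.0 for SMAD3 and NFATC2, and 4.09 for TGF over NC. The H3K9lc median within 3 kb was -0.95 (3 regions). The NFATC2 median was 0.0804 above the median level. The JUN median was -0.0589 with a pseudocount of 1 and -0.031 above the median level. The TGF over NC median turned to -0.24 at equal totals, -0.74 with a pseudocount of 1, -0.60 within 3 kb (6 regions), and -1.66 with counts of 0 at the floor, an alternative added after seeing the data. The cause was not tested.

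Of 136 leading regions, 133 stayed within counting error at equal totals. With reads summed over the gene 120 did, and 8 that had differed at least 2-fold changed sign: Lamc1 for H3K9lc (-0.0012), Itga2 (-1.09) and Lamb3 (0.23) for SMAD3, Itga3 (0.50), Itga7 (-0.0378), Lama4 (-0.44) and Lamb1 (0.0711) for NFATC2, and Itga1 for TGF over NC (-0.0752). Another 8 moved beyond their counting interval. At the median of 4 SMAD3 or 3 NFATC2 reads per member region, a 2-fold difference lies within counting error.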
